A study of Glycine max with 12 samples.

Results

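Messenger RNA of 2 Kunitz trypsin inhibitor genes, KTI1 (Glyma.01G095000) and KTI3 (Glyma.08G341500), was measured in developing soybean seed. They are 2 of the 52872 genes in the count table, and both passed the filter on low counts. The genes were chosen by identifier. The table holds identifiers only, so the names come from that choice, and the RefSeq gene table (assembly Glycine_max_v4.0) places KTI1 on chromosome 1 and KTI3 on chromosome 8, the chromosomes that the identifiers carry. The data comprise 3 libraries of transgenic event e15, 3 of event e19 and 6 of seeds called nulls. All are of genotype 93Y21 and were collected 35 days after flowering. An event is 1 transformation line, and both events carry a construct with the GmUBQ promoter. The study concerns GmCGS2, an enzyme of methionine synthesis, of which the construct carries a variant with a deletion. The sample titles mark the events HOM with line codes 15A and 19A, and the nulls carry the line code 33A, so a difference of both events from the nulls cannot be told apart from a difference between lines.

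Kunitz inhibitors are small globular proteins that block trypsin by offering it a reactive loop. In soybean they are stored in the cotyledons during seed filling, and KTI3 encodes the major trypsin inhibitor of the seed, a protein that must be heated to make soybean meal digestible. KTI1 encodes a related inhibitor. Kunitz inhibitors hold fewer cysteines than the Bowman-Birk inhibitors, the other trypsin inhibitors of soybean seed.

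The libraries held 19207771 to 23276877 counts. Nulls 4 to 6 stood apart from nulls 1 to 3, although the labels describe all 6 alike, so results are given against all nulls and against each of these sets. TMM factors, which correct library sizes for composition, were 0.958 to 1.01 in e15, 0.907 to 1.02 in e19, 0.954 to 0.986 in nulls 4 to 6 and 1.10 to 1.12 in nulls 1 to 3. Neither the transgene's target nor seed marker genes could be checked, because the identifiers are not paired with names.

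Both genes were among the most abundant transcripts of the seed. KTI3 ranked 7 or 8 by count in every library, and KTI1 ranked 15 to 18. Counts grow with transcript length, so these ranks order reads and not molecules. KTI3 took 2.41 ± 0.0984% of the counts in e15, 2.44 ± 0.0664% in e19 and 2.35 ± 0.0846% in the nulls (SD, n = 3, 3 and 6). KTI1 took 0.575 ± 0.0114% in e15, 0.566 ± 0.0438% in e19 and 0.478% to 0.594% in the nulls. The pair together took 2.87% to 3.11% of the counts in the 6 event libraries and 2.73% to 3.05% in the 6 nulls, ranges that overlap. KTI1 had 100852 to 134582 counts per library and KTI3 468102 to 567975. Counting error alone was therefore at most 0.315% of a KTI1 value and 0.146% of a KTI3 value, so the spread between libraries set the precision.

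**Figure D1:**
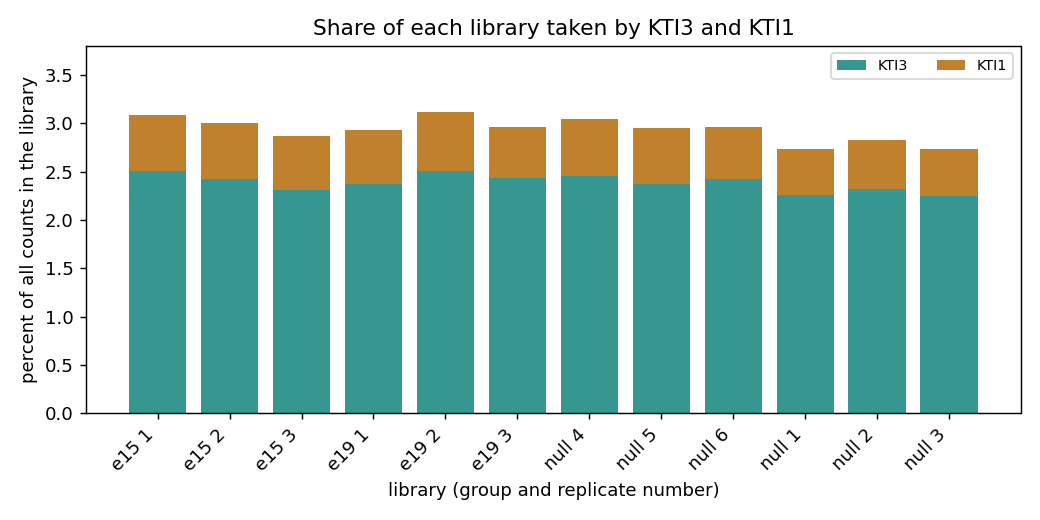
Percent of all counts in each library (vertical axis, from 0) taken by KTI3 and KTI1, stacked, for the libraries of e15, e19, nulls 4 to 6 and nulls 1 to 3. The lowest totals are those of nulls 1 to 3, at 2.73% to 2.82%, and the e15 and e19 libraries lie at 2.87% to 3.11%.

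Against all nulls, neither inhibitor passed the test in either event. With all nulls as the other side, edgeR called 0.754% of the 32115 genes tested in e15 and 0.0747% in e19, at an adjusted p of 0.05 or less, and 0 of the 2 inhibitor genes in either. At an unadjusted p under 0.05 the number was also 0 in both events, and DESeq2 called 0. In bulk seed, fewer cells that make a transcript and less of it per cell cannot be told apart.

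For KTI3, the major inhibitor, the levels overlapped between groups. Levels are in CPM, counts scaled to a fixed TMM-corrected library size. KTI3 was at 26153, 25292 and 22907 CPM in e15, and at 25367, 27617 and 23903 CPM in e19. It was at 25725, 24041 and 25149 CPM in nulls 4 to 6, and had 20076, 21218 and 20247 CPM in nulls 1 to 3. Every event library lay above nulls 1 to 3, as in 5.93% of all genes tested, and the event libraries overlapped nulls 4 to 6. The means were 24784 ± 1682 CPM in e15, 25629 ± 1871 CPM in e19 and 22743 ± 2531 CPM over all nulls (SD, n = 3, 3 and 6). Against all nulls the fold was 1.09 in e15, with a 95% interval of 0.940 to 1.26 (adjusted p = 0.788, edgeR's quasi-likelihood test with Benjamini-Hochberg adjustment), and 1.13 in e19, with an interval of 0.972 to 1.31 (adjusted p = 0.756). These intervals include both a small fall and a moderate rise, which the spread between the nulls does not separate.

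KTI1, the less abundant of the pair in reads, followed the same pattern. It was at 6122, 6009 and 5590.4 CPM in e15, and at 6001, 6758 and 5149.9 CPM in e19. It was at 6231, 5859 and 5604 CPM in nulls 4 to 6, and had 4259, 4581 and 4309 CPM in nulls 1 to 3. As for KTI3, all 6 event libraries lay above nulls 1 to 3 and overlapped nulls 4 to 6. The means were 5907 ± 280.0 CPM in e15, 5969 ± 804 CPM in e19 and 5140.4 ± 861 CPM over all nulls. Against all nulls the fold was 1.15 in e15 (interval 0.965 to 1.37, edgeR adjusted p = 0.674) and 1.16 in e19 (interval 0.976 to 1.38, edgeR adjusted p = 0.741).

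**Figure D2:**
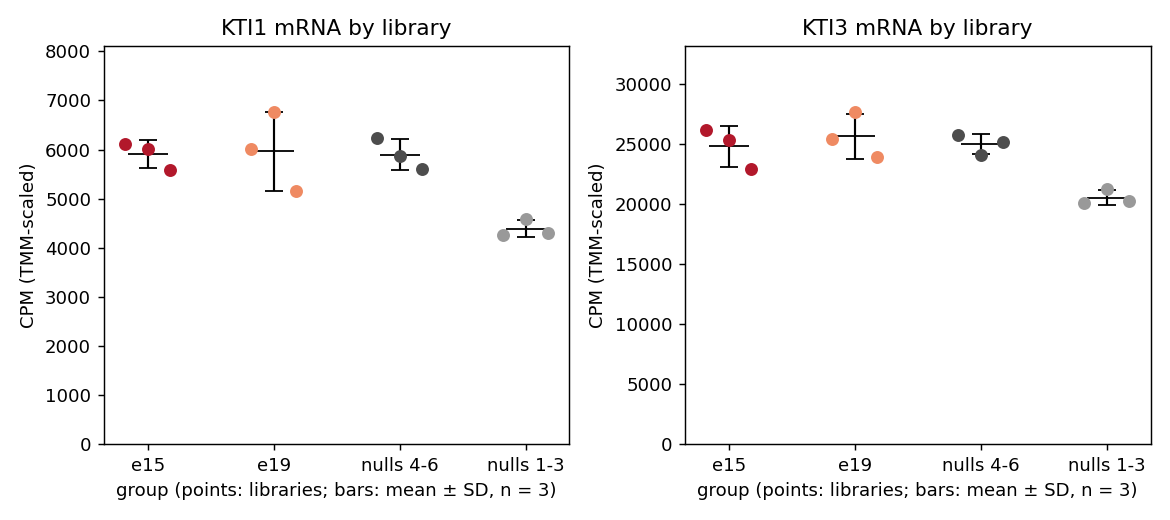
CPM with TMM-scaled library sizes (vertical axes, from 0) of KTI1 and KTI3 in each library, by group. Points are libraries and bars the mean ± SD of 3 libraries. For both genes e15, e19 and nulls 4 to 6 overlap, and nulls 1 to 3 lie below them, at 4259 to 4581 CPM for KTI1 and 20076 to 21218 CPM for KTI3.

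With the mean of the events set against the nulls, edgeR called 0.255% of all genes and 0 of the 2 inhibitors, 1 of which had an unadjusted p under 0.05. KTI1 had a log2 change of 0.21 ± 0.10 (SE, unadjusted p = 0.0487, edgeR adjusted p = 0.530) and KTI3 one of 0.15 ± 0.08 (edgeR adjusted p = 0.619). DESeq2 called 0 of the 2, both of which had an unadjusted p under 0.05 there. The comparisons of e15 and e19 use the same nulls, so their likeness is not independent evidence. KTI1 passed the threshold in the mean of the events when the nulls entered the fit as 2 subgroups (log2 change 0.22, adjusted p = 0.0497), within a range of 0.000105 to 1.00 over its alternatives.

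The events did not differ detectably from each other. KTI1 in e15 was at 0.990 times its e19 level, with a 95% interval of 0.808 to 1.21 (edgeR adjusted p = 0.995), and KTI3 at 0.967 times, with an interval of 0.814 to 1.15 (edgeR adjusted p = 0.977). In that comparison 0.299% of the genes were called, and edgeR and DESeq2 called 0 of the 2 inhibitors, with 0 at an unadjusted p under 0.05. Within e19 the libraries spread widely for KTI1, from 5149.9 CPM in replicate 3, which had the lowest total count of all libraries, to 6758 CPM in replicate 2. Without replicate 3 the log2 change of KTI1 in e19 against the nulls was 0.31 (adjusted p = 0.578), and without replicate 2 it was 0.12 (adjusted p = 0.906), within a range of 0.000811 to 0.995 over its alternatives.

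Both inhibitors differed between the null sets. KTI1 was 1.35-fold higher in nulls 4 to 6, with 5898 ± 315 CPM, than in nulls 1 to 3, with 4383 ± 173 CPM (SD, n = 3 each), a log2 change of 0.43 ± 0.09 (SE, edgeR adjusted p = 0.00159). KTI3 was 1.22-fold higher, with 24971 ± 856 CPM in nulls 4 to 6, against 20514 ± 616 CPM in nulls 1 to 3, a log2 change of 0.28 ± 0.09 (SE, edgeR adjusted p = 0.0308). For neither gene did the sets overlap. This comparison called 9.59% of all genes, 4.51% as higher, and in 14.6% of the genes tested every library of nulls 4 to 6 lay above nulls 1 to 3, so such a difference was common. Of the 20 most abundant genes, which include both inhibitors, all 20 had a higher fitted level in nulls 4 to 6 and 13 were called, with a median log2 change of 0.31. By size of change KTI1 ranked 6 and KTI3 ranked 13 among the 20. Over all genes tested the median was 0.00.

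The call of KTI3 between the null sets was lost under several alternatives. Leaving out null 1, 2, 3, 4 or 6 ended it, with edgeR adjusted p of 0.137, 0.0777, 0.133, 0.149 and 0.0861, while without null 5 it stood at 0.0460. The log2 change itself stayed at 0.26 to 0.31 with any 1 library left out. It also ended with library totals alone (adjusted p = 0.237), within a range of 0.000147 to 0.237 over its alternatives. KTI1 was called in all 16 alternatives tried, with adjusted p from 4.06e-08 to 0.0249. With library totals alone the log2 difference fell to 0.23 for KTI1 and 0.09 for KTI3, while the median of all genes moved to -0.20. Measured from that median, the differences were 0.43 and 0.28. Taking off the median removes a shift shared by most genes, much as TMM does, so the match with TMM is not separate evidence. In counts taken as a plain share of the library, KTI3 took 2.42 ± 0.0425% in nulls 4 to 6 and 2.28 ± 0.0391% in nulls 1 to 3, and KTI1 took 0.571 ± 0.0274% in nulls 4 to 6 and 0.486 ± 0.0129% in nulls 1 to 3. The 20 most abundant genes without the pair took 40.9% of the counts on average in nulls 4 to 6 and 36.4% in nulls 1 to 3. The part of this shift in composition in the change of the inhibitors was not tested.

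Which null set the events were compared with decided the outcome. Against nulls 4 to 6, KTI1 had a fold of 1.00 in e15 (95% interval 0.884 to 1.13) and 1.01 in e19 (0.894 to 1.15). KTI3 had 0.992 in e15 (0.880 to 1.12) and 1.03 in e19 (0.910 to 1.16). The edgeR adjusted p was 0.988 to 0.998 in these 4 tests, in which 1.17% of all genes were called in e15 and 0.252% in e19. Against nulls 1 to 3, KTI1 was 1.35-fold higher in e15 and 1.36-fold higher in e19 (edgeR adjusted p = 0.00142 and 0.00164). KTI3 was 1.21-fold higher in e15 and 1.25-fold higher in e19 (edgeR adjusted p = 0.0426 and 0.0177). There 8.33% of all genes were called in e15, 3.67% as higher, and 7.23% in e19, 3.62% as higher. In 12.9% of the genes all e15 libraries lay above nulls 1 to 3, and in 11.8% all e19 libraries did. The mean of the events gave log2 changes of 0.44 for KTI1 and 0.30 for KTI3 against nulls 1 to 3 (edgeR adjusted p = 0.000240 and 0.00815), where 10.9% of all genes were called, 4.89% as higher. Against nulls 4 to 6 it gave 0.0098 and 0.013 (edgeR adjusted p = 0.995 and 0.994), where 0.486% were called. Against nulls 1 to 3, KTI1 ranked 10 and KTI3 ranked 12 among the 20 most abundant genes by change in each event, and 12 of the 20 were called in each event, all 12 higher. Against nulls 4 to 6, 3 of the 20 were called in each event. With library totals alone and nulls 1 to 3, KTI1 was still called in both events (adjusted p = 0.00598 and 0.0101) and KTI3 in neither (adjusted p = 0.257 and 0.165). Over all alternatives the edgeR and DESeq2 adjusted p of KTI1 in e15 ran from 0.000463 to 0.998, that of KTI3 in e15 from 0.0201 to 1.00 and that of KTI3 in e19 from 0.00894 to 0.995.

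**Figure D3:**
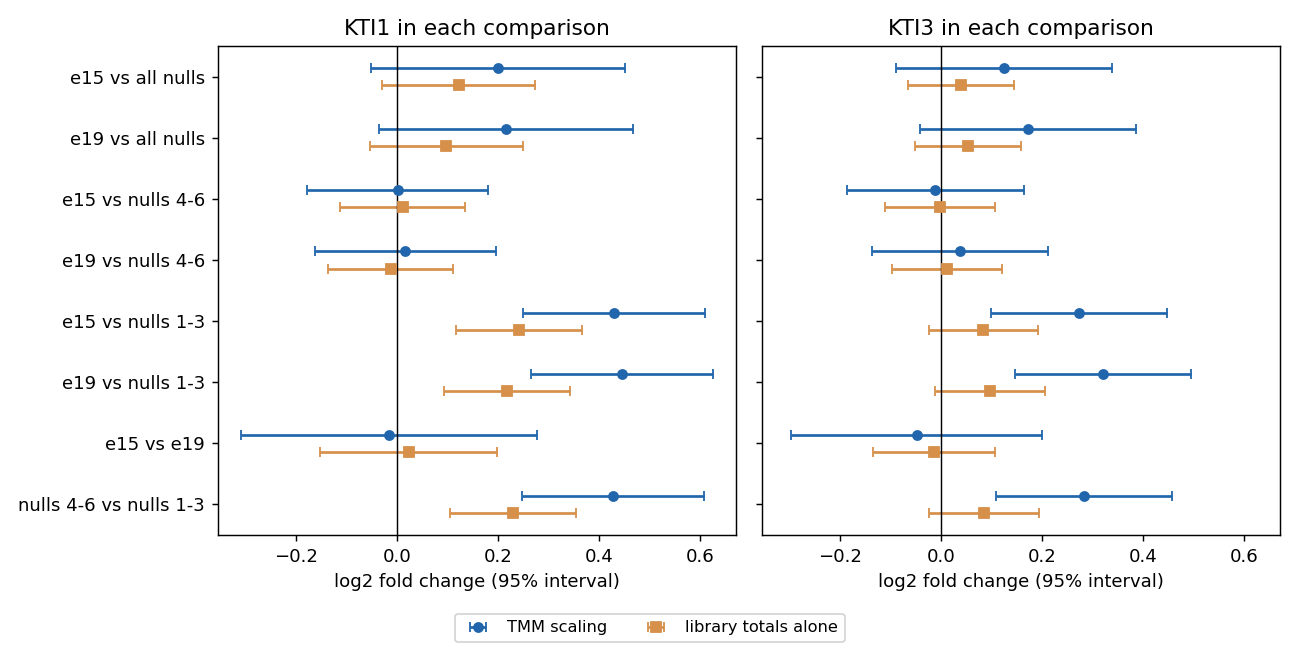
Log2 fold change (horizontal axis) of KTI1 and KTI3 with its 95% interval in each comparison, first group over second, with TMM scaling (circles) and with library totals alone (squares). Intervals against nulls 4 to 6 and between the events include 0, and those against nulls 1 to 3 exclude 0 for KTI1 under both scalings and for KTI3 under TMM alone.

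The balance between the inhibitors was examined as the ratio of KTI3 to KTI1 counts, which does not depend on library size. The ratio was 4.27, 4.21 and 4.10 in e15, and 4.23, 4.09 and 4.64 in e19. It was 4.13, 4.10 and 4.49 in nulls 4 to 6, and 4.71, 4.63 and 4.70 in nulls 1 to 3. The ratio is of reads, not adjusted for length. Nulls 1 to 3 lay high and close together, and e19 replicate 3 reached their range while the other event libraries did not. In log2 units the ratio differed by -0.09 between e15 and the nulls (p = 0.190, exact two-sided permutation test), by -0.05 between e19 and the nulls (exact p = 0.571) and by -0.07 between both events and the nulls (exact p = 0.197). The difference was -0.04 between e15 and e19 (exact permutation p = 0.700) and -0.14 between nulls 4 to 6 and nulls 1 to 3, whose ratios did not overlap (exact permutation p = 0.100, the smallest that 3 against 3 libraries can give). Without e19 replicate 2 the e19 difference from the nulls was -0.0077 and without e19 replicate 3 it was -0.0995 (exact permutation p = 0.929 and 0.286), and without e19 replicate 3 the difference between e15 and e19 was 0.012. Adjusted over the 5 comparisons, the p-values of these exact permutation tests were 0.328 to 0.700. Comparisons of the events with a single null set lay outside that adjustment. Against nulls 1 to 3 alone, the ratio differed by -0.14 for both events (unadjusted exact permutation p = 0.0476). It differed by -0.16 for e15, whose 3 ratios lay below all of those nulls (exact permutation p = 0.100), and by -0.12 for e19 (exact permutation p = 0.200). Against nulls 4 to 6 the difference was 0.0053 for both events (exact permutation p = 0.976). Against all nulls, no change of KTI3 relative to KTI1 was detectable.

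**Figure D4:**
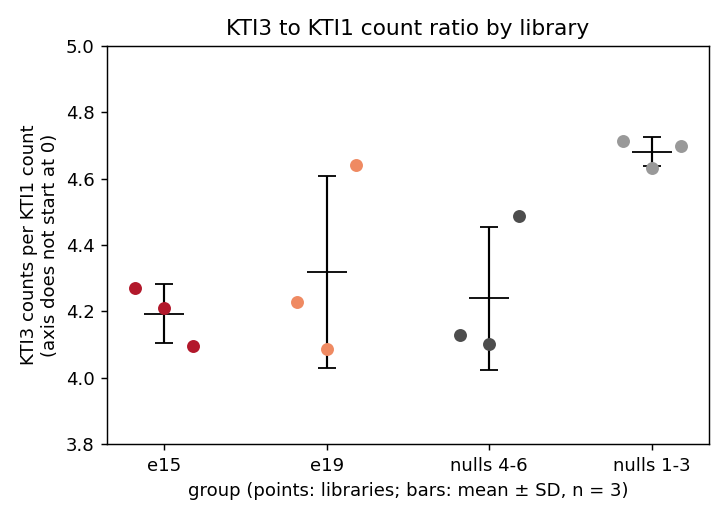
KTI3 counts per KTI1 count (vertical axis, which does not start at 0) in each library, by group, with points for libraries and bars for the mean ± SD of 3 libraries. Nulls 1 to 3 lie at 4.63 to 4.71, and e15 lies at 4.10 to 4.27.

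The counts show that reads were divided between these genes. Both counts were whole in 8 libraries and not whole in 4 (tolerance 0.0005), and in all 12 libraries the sum of the pair was whole. In e15 replicate 2, for example, KTI1 had 126730.189 and KTI3 533432.811 counts, which add to 660163. In null replicate 3, e15 replicate 2 and e19 replicate 3, the KTI1 part after the point was 0.167, 0.189 and 0.178. KTI1 held 17.5%, 19.2% and 17.7% of the pair's counts there. In e15 replicate 3 these values were 0.385 and 19.6%. A few divided reads would be enough to give such parts, but their number is not given in the table. The ratio of the genes therefore carries an uncertainty that the sum does not, and its size was not tested. RefSeq lists 5 genes whose symbol or synonym begins with KTI. Of the identifiers of the count table, 0 could be paired with that table, so the other Kunitz genes could not be identified. In the RefSeq table the gene listed just before KTI3 on chromosome 8 is KTI-1. Whether KTI-1 is among the neighbours of KTI3 described next is not known.

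Genes beside the inhibitors on the chromosome did not share their level. Of the 5 identifiers before and the 5 after KTI1, 4 passed the filter, and their mean level was at most 5.26 CPM in e15, 5.24 CPM in e19 and 5.03 CPM in the nulls. Of those around KTI3, 5 passed. The most abundant, singled out after its values were seen, was Glyma.08G341000, at 1663 ± 367 CPM in e15, 1703 ± 211 CPM in e19 and 1951 ± 302 CPM in the nulls. Against the nulls its log2 change came to -0.23 ± 0.15 in e15 and -0.20 ± 0.15 for e19 (SE, edgeR adjusted p = 0.708 and 0.811), and -0.30 ± 0.17 in nulls 4 to 6 against nulls 1 to 3 (edgeR adjusted p = 0.340). These fitted values lay below 0, where those of the inhibitors lay above 0, but none of them was called. The neighbours did not share 1 direction: over the 9 tested, log2 changes between the null sets ran from -1.34 to 0.70, with a median of -0.30. Between nulls 4 to 6 and nulls 1 to 3 the tested neighbour with the largest fitted change was Glyma.01G095232, with a log2 change of -1.34 ± 0.63 (SE, edgeR adjusted p = 0.207) at 1 to 14 counts per library. EdgeR called 0 of the 9 tested neighbours in each of the 5 comparisons. At an unadjusted p under 0.05 it found 5 between the null sets, where 22.3% of all genes tested passed that limit, and 0 in the others. DESeq2 called 0 and found 3 between the null sets at that limit, which 17.4% of all genes passed. The largest fitted change was that of Glyma.08G341100 in e15 against the nulls (log2 0.40), of Glyma.08G341800 in e19 against the nulls (0.42) and in e15 against e19 (-0.35), and of Glyma.08G342000 in the mean of the events (-0.34).

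The inhibitors varied together over the 12 libraries, with a Pearson correlation of 0.97 in log2 CPM, and of 0.86 after the mean of each of e15, e19, nulls 4 to 6 and nulls 1 to 3 was removed. Each gene was set against the 17354 others averaging at least 5 CPM. KTI3 ranked 10 by likeness to KTI1, and KTI1 ranked 4 by likeness to KTI3. Most like KTI1 were Glyma.13G123500 (correlation 0.97) and Glyma.14G116300 (0.97). Glyma.13G123500 is abundant as well, at 24004 ± 1334 CPM in e15, 26279 ± 4031 CPM in e19, 25870.0 ± 1524 CPM in nulls 4 to 6, against 16191 ± 412 CPM in nulls 1 to 3. Most like KTI3 were Glyma.17G223300 (0.98), at 31.9 to 43.0 CPM in the group means, and Glyma.02G145700 (0.97), at 2020 to 2539 CPM. Over the 12 libraries 1.08% of these genes had a correlation above 0.9 with KTI1, and 0.663% with KTI3. All points share the libraries and their scaling, and each correlation includes the step between nulls 1 to 3 and the rest. After the group means were removed, the correlations were 0.94 and 0.87 for the genes most like KTI1 and 0.94 and 0.89 for those most like KTI3. These genes were ranked over the same libraries, so all these values are a description.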

How the data were processed

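The authors deposited 1 table of estimated counts of reads per gene for 12 libraries of polyadenylated RNA (single reads, stranded kit, per the labels' protocols). The aligner and counter were not given in the sources used here, and the table carries the annotation tag W82a4v1. All columns were used (0 left out). Counts were rounded to whole numbers, filtered with filterByExpr (32115 genes kept), TMM-scaled and tested with edgeR 4.0.16's robust quasi-likelihood test in 1 fit with a mean for e15, e19 and the nulls. Comparisons with a null set used a fit with 4 means. Calls used a Benjamini-Hochberg rate of 0.05 over all genes tested. DESeq2 1.42.0 was an alternative, and the fit was tested on simulated data. Ratios used the deposited counts and exact permutation tests (scipy 1.17.1). Standard errors come from fold changes and F statistics. Separate plants are not stated for the replicates, so p-values cover the spread of these samples, possibly technical. Named genes were the members, the 2 most correlated genes for each, and the tested neighbour with the largest change in each comparison; Glyma.08G341000 falls outside this rule. Members, lists and the split of the nulls were chosen with earlier results of these data known.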

Additional observations from a re-analysis of the deposited data

How the results depend on the processing

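Values are log2 changes, in the order e15, e19 and mean of events where 3 are given. The choice of nulls moved the most. Against nulls 1 to 3, KTI1 (0.43, 0.45, 0.44) and KTI3 (0.27, 0.32, 0.30) passed the threshold. With library totals and nulls 1 to 3, chosen after seeing the data, KTI1 still passed (0.24, 0.22, 0.23). With the replicate number as a block, KTI1 (0.43, 0.44, 0.43) and KTI3 (0.27, 0.32, 0.30) passed, since only nulls 1 to 3 share numbers with the events. Same-numbered deviations correlated at -0.33 to 0.51, with both signs, and do not settle pairing. With the nulls as 2 subgroups KTI1 passed for the mean (0.22).

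Signs turned near 0. KTI3 in e15 against nulls 4 to 6 was -0.011, and -0.0015 with library totals as well. KTI1 against nulls 4 to 6 with library totals was -0.012 in e19 and -0.00010 for the mean. KTI1 in e15 against e19 was 0.024 with library totals. The log2 ratio of KTI3 to KTI1 against nulls 4 to 6 was 0.026 in e19 and 0.0053 for both events. Against nulls 1 to 3 that ratio was -0.14 for both events (unadjusted exact permutation p = 0.0476). KTI3 between the null sets missed the threshold with library totals (0.085).

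Leaving out each library in turn gave -0.11 to 0.084 for KTI1 and -0.097 to 0.0089 for KTI3 in e15 against e19, 0.26 to 0.31 for KTI3 between the null sets, and -0.079 to 0.012 for the log2 ratio in e15 against e19. In all, 216 values kept direction and side of the threshold. A fit of the compared libraries alone adds nothing for the mean, which uses all of them.

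Counts of all genes called moved too. The e15 count (242) was 888 with 2 null subgroups, 376 against nulls 4 to 6, 2676 against nulls 1 to 3, 6484 with library totals as well, and 2350 with the replicate block. For e19 (24) these were 148, 81, 2322, 8746 and 1945, and 75 against nulls 4 to 6 with library totals. For the mean (82) they were 723, 156, 3503, 10699 and 3074, with 150 against nulls 4 to 6 with library totals and 157 by DESeq2. For e15 against e19 (96) it was 341 with 2 null subgroups, 145 with those libraries alone and 292 with the block. Between the null sets (3079) it was 4707 with the nulls alone and 7523 with library totals, 514 higher and 7009 lower, against 1448 and 1631 with TMM. Leaving out libraries gave 82 to 268, 17 to 26 and 53 to 107, and 67 to 101 between the events and 1692 to 3598 between the null sets. Over 1.5-fold moves came without e15 replicate 1, 2 or 3 (106, 129, 82), null 1 or e15 replicate 3 (53, 54) for the mean, and null 1, 2, 3 or 4 (1922, 1912, 1793, 1692) between the null sets. The causes were not tested.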

Other observations

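Among the 20 most abundant genes, the inhibitor pair took 6.66 ± 0.0949% of the counts in e15, 6.62 ± 0.274% in e19, 6.80 ± 0.0687% in nulls 4 to 6 and 7.06 ± 0.121% in nulls 1 to 3 (SD, n = 3 each). The share was highest in nulls 1 to 3, the set in which the levels in CPM were lowest. The shares of e15 and e19 overlapped those of nulls 4 to 6 and lay below those of nulls 1 to 3. This was computed after the values were seen, and no test was made.

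Within each null set of 3 libraries, KTI3 varied less than most genes with which it was compared. Its coefficient of variation in CPM came to 3.43% for nulls 4 to 6, where 18.9% of the 17355 genes averaging at least 5 CPM varied less. For nulls 1 to 3 it came to 3.003%, and 21.1% varied less. In e15 it was 6.79% and in e19 7.30%, near the medians of these genes, 6.94% and 8.40%. KTI1 varied by 13.5% in e19, more than 79.7% of the genes, and by 4.74% in e15, 5.35% in nulls 4 to 6 and 3.96% in nulls 1 to 3. Over all 6 nulls the values were 16.7% for KTI1 and 11.1% for KTI3, and the median gene stood at 7.98%. Genes with fewer counts carry more counting error, so a low place among these genes cannot be told apart from high abundance.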
